A study of Mus musculus with 8 samples.

Results

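The genes described here are the insulin-like growth factor (IGF) binding proteins and the receptor axis that they modulate in mouse embryonic stem cells. They comprise 10 genes, taken by symbol from a list: the binding proteins Igfbp2, Igfbp3, Igfbp4 and Igfbp5, the receptors Igf1r and Insr, the adaptors Irs1 and Irs2, and the kinases Sgk3 and Akt1. All 10 were found among the 17725 genes in the table, and 8 of them passed the filter of a mean of at least 1 FPKM (fragments per kilobase of transcript, scaled to the mapped fragments of each library) that left 11270 genes for testing. Igfbp5 and Irs1 fell below it. Igfbp4 was chosen for its fall in the knockouts, so its values are a description with no test. The others were listed for their function, with earlier results of these data known.

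The study profiled total RNA from E14TG2a cells, a 129/Ola mouse embryonic stem cell line, as unedited wild type (WT) and as 3 knockouts made with CRISPR/Cas9, each lacking an enhancer that the labels call E1, E2 or E3. Each of the 4 groups had 2 samples, described as biological duplicates, at passages 3 to 6. All samples, WT included, were grown on gelatin without feeder cells in medium with serum, leukaemia inhibitory factor, the GSK3 inhibitor CHIR99021 and the MEK inhibitor PD0325901. The deleted intervals, the number of clones behind each knockout and any edited control with intact enhancers are not given in the sources used here. A difference from WT can therefore not be told apart from a difference between an edited line and its parent, and p-values measure only the spread between these samples.

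IGF1, IGF2 and insulin bind the receptor tyrosine kinases encoded by Igf1r and Insr, which phosphorylate the adaptors IRS1 and IRS2. The adaptors recruit phosphoinositide 3-kinase (PI3K), whose lipid product brings AKT kinases, and through its own lipid-binding domain SGK3, to membranes where they are activated. IGF binding proteins are secreted and hold IGFs outside the cell, which limits or prolongs their access to the receptor. Mouse embryonic stem cells use PI3K signalling for proliferation and self-renewal, and GSK3, inhibited in this medium, is a substrate of AKT.

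The libraries summed to between 454974 and 532007 FPKM. Their depth is not given in the sources used here, and a rough estimate from the steps of low values put them between 0.787 and 1.01 times WT replicate 1. Replicates correlated at Pearson r from 0.985 to 0.994 across genes, which are not independent replicates. Sox2, a core pluripotency factor and the gene named in the study's design, stood at 131 and 136 FPKM in WT, with E1-KO at 58.0 and 60.3, E2-KO at 114 and 97.5 and E3-KO at 97.7 and 91.0. All 9 embryonic stem cell markers had a mean above 1 FPKM, with summed levels of 2771 to 2871 FPKM in WT and 2109 to 2692 in the knockouts. Within that sum the markers moved in opposite directions. Sox2, Esrrb, Klf4, Tfcp2l1 and Dppa5a lay below both WT samples in all 6 knockout samples. Pou5f1 and Zfp42 lay above both in all 6, and Nanog and Tdgf1 were mixed. Over all tested genes, 28.5% lay below both WT samples in all 6 knockout samples and 15.3% above both. Klf4 was at 50.6%, 44.1% and 47.1% of WT, and Pou5f1 at 121%, 135% and 123%. The 8 fibroblast markers summed to 1.27 to 1.70 FPKM in WT, with E1-KO at 5.94 to 9.68, E2-KO at 3.43 to 3.50 and E3-KO at 3.78 to 4.02, while Col3a1, Lum and Dcn never exceeded 0.0685. Thy1 averaged 0.768 FPKM in WT and 2.61, 1.53 and 2.69 in the knockouts, and Acta2 averaged 0.125 in WT and 4.30, 0.811 and 0.227. Both lay above WT in every knockout sample, and Col1a1 did so in 5 of 6. Acta2 alone stood at 6.19 and 2.42 FPKM in the E1-KO samples. Col1a2, at most 0.113 FPKM, lay below both WT samples in 4 knockout samples and above both in 2. Postn, at most 0.2 FPKM, lay below both in 2, the E1-KO samples, and above both in 3. The 5 measured primitive endoderm markers summed to 1.59 to 1.65 FPKM in WT. Their sums were 0.736 to 0.851 in E1-KO, 1.03 to 1.23 in E2-KO and 2.44 to 4.69 in E3-KO. Most of the E3-KO sum was Gata6, at 3.72 and 1.76 FPKM there against 1.04 and 1.15 in WT. The part of these markers in the results below was not tested.

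Promoter sequence was at hand for 8 of the 10 genes, and 4 are shown: Igfbp4, chosen for its fall, and the most abundant binding protein, a receptor and an adaptor that also fell. Each is the 250 bases before the RefSeq start on GRCm38.p6, written 5′ to 3′ on the gene's strand, with a matched motif in capitals: a TATA box (TATAAA) in Igfbp4 and an E-box (CACGTG) in Igfbp2 and Irs2.
Igfbp4, chr11:99040994-99041243, plus strand: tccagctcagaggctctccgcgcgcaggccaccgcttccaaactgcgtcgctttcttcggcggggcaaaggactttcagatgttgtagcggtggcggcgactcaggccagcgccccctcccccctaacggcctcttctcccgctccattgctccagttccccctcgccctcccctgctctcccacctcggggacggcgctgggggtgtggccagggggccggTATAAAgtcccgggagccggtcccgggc
Igfbp2, chr1:72824230-72824479, plus strand: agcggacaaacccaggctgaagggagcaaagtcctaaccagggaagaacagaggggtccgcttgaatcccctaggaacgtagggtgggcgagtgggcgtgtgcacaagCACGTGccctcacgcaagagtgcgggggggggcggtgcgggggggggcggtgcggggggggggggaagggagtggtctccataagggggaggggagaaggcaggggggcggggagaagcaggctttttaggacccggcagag
Igf1r, chr7:67952007-67952256, plus strand: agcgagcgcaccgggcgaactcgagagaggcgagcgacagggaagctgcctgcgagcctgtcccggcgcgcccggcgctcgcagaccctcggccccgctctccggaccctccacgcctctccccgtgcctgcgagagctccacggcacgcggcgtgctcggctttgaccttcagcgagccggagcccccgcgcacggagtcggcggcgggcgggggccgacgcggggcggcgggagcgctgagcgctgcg
Irs2, chr8:11008930-11009179, minus strand: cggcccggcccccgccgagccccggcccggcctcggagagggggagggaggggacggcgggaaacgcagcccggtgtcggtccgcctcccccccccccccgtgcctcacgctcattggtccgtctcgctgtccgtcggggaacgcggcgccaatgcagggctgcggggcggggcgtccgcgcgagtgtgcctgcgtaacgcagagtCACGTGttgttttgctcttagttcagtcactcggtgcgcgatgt
The Igfbp4 TATA box began at position -28 from the start, where a TATA box of a focused promoter commonly lies. The E-boxes began at -142 in Igfbp2 and -44 in Irs2. The 4 sequences held 22, 14, 42 and 34 CpG dinucleotides in that order, against a median of 6 over all 32851 promoter sequences. On both strands, TATAAA occurred in 12.4% of those sequences, the palindrome CACGTG in 6.02%, a SOX core (CATTGT) in 10.7%, a TCF/LEF core (CTTTGAT) in 3.21% and a FOXO core (GTAAACA) in 3.17%. None of the 4 printed windows held the SOX, TCF/LEF or FOXO letters. No promoter activity was measured, and a match describes the letters only.

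Igfbp4, a secreted binding protein that restrains IGF action and is cleaved by pappalysin, had the lowest level relative to WT of the 8 genes above the filter in E2-KO and E3-KO, and the second after Sgk3 in E1-KO (ENSMUSG00000017493; chr11:99041244-99054392, plus strand, GRCm38). It stood at 13.5 and 15.0 FPKM in WT, with E1-KO at 3.15 and 3.42, E2-KO at 0.792 and 0.795 and E3-KO at 0.755 and 2.2. Both WT samples lay well above all 6 knockout samples, and the E3-KO samples were far apart, with replicate 1 at the E2-KO level. The WT mean was 14.2 ± 1.06, and those of E1-KO, E2-KO and E3-KO were 3.28 ± 0.197, 0.793 ± 0.00190 and 1.48 ± 1.03 (FPKM, SD, n = 2). The knockout means were thus 23.1%, 5.58% and 10.4% of WT in E1-KO, E2-KO and E3-KO. On the log2(FPKM + 1) scale the differences were -1.83, -3.08 and -2.68, which placed the gene at rank 56, 1 and 5 among the 11270 tested genes ordered by the size of their fall. In bulk RNA, fewer cells of a type that express a gene and less of its RNA per cell cannot be told apart.

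The 5 tested genes whose pattern over the 8 samples was most like that of Igfbp4 were Sp5, Ablim1, Copz2, Aldh1l1 and Rpl34-ps2. They were picked for that likeness, and Igfbp4 for its fall, so their fall in the knockouts follows from the choice. Likeness was the root mean square difference of log2(FPKM + 1) after centring each gene on its mean, which ran from 0.29 for Sp5 to 0.46 for Rpl34-ps2, against a median of 1.19 over the other 11269 tested genes. Sp5, a transcription factor and well-known WNT target, stood at 9.07 and 10.8 FPKM in WT, with E1-KO at 1.18 and 1.25, E2-KO at 0.380 and 0.368 and E3-KO at 0.741 and 1.15. Its knockout means were 12.2%, 3.77% and 9.52% of WT, lowest in E2-KO as for the Igfbp4 values that it was picked by. Copz2, a coatomer subunit gene on chromosome 11, and Aldh1l1, a folate enzyme gene on chromosome 6, were instead lowest in E3-KO, at 9.60% and 14.7% of WT. The median difference between E3-KO and E2-KO over the 535 tested genes of chromosome 6 was -0.58, against -0.38 for Aldh1l1. Ablim1, an actin-binding protein gene, was at 19.2%, 11.2% and 12.7% of WT. Rpl34-ps2 is a ribosomal protein pseudogene, and its reads may belong to near-identical copies.

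**Figure D1:**
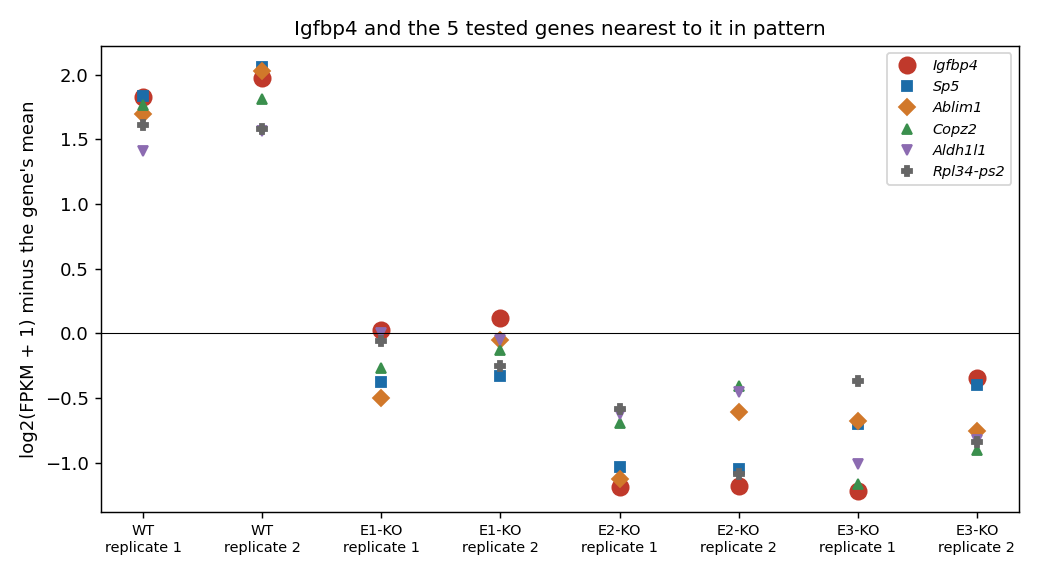
Centred level, log2(FPKM + 1) minus the gene's mean over 8 samples, on the y axis for Igfbp4 and the 5 genes nearest to it, in each sample on the x axis. All 6 genes are highest in both WT samples, and Igfbp4 (red circles) and Sp5 (blue squares) sit near each other in most samples. The 5 genes were picked for likeness to Igfbp4, so this follows from the choice.

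Igfbp2, the main binding protein of these cells, fell in all 3 knockouts (ENSMUSG00000039323; chr1:72824503-72852474, plus strand). It stood at 250 and 248 FPKM in WT, with E1-KO at 137 and 135, E2-KO at 180 and 194 and E3-KO at 188 and 145. No knockout sample reached the WT range, and the E3-KO samples lay above E1-KO and within or below the range of E2-KO. The WT mean was 249 ± 1.78, and those of E1-KO, E2-KO and E3-KO were 136 ± 1.09, 187 ± 9.65 and 166 ± 30.6. The log2 differences from WT (SE 0.13 each) were -0.87, -0.41 and -0.59, with limma-trend adjusted p of 0.00124, 0.0322 and 0.00552 in E1-KO, E2-KO and E3-KO. The E2-KO call was lost without a filter on low values (adjusted p = 0.0609) and with median-ratio scaling (0.0616). It was also lost without WT replicate 1 (0.134), WT replicate 2 (0.132), E1-KO replicate 1 or 2 (0.059 each) or E2-KO replicate 1 (0.114).

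Igfbp3, which carries most circulating IGF in adult blood, was low, with values that lay the other way (ENSMUSG00000020427; chr11:7206086-7213923, minus strand). Its levels were 1.62 and 0.967 FPKM in WT, with E1-KO at 2.12 and 1.82, E2-KO at 2.82 and 2.35 and E3-KO at 2.2 and 1.68. All 6 knockout samples lay above both WT samples, narrowly so for E3-KO replicate 2. It rose in E2-KO, with a log2 difference of 0.66 ± 0.19 (SE) and adjusted p = 0.0234. That call was lost without E2-KO replicate 1 (0.111) or WT replicate 2 (0.174). The differences of 0.38 in E1-KO and 0.36 in E3-KO did not pass (adjusted p = 0.131 and 0.139). Igfbp5, which lies 5457 bases downstream of Igfbp2 on the opposite strand, ranged from 0.127 to 0.362 FPKM over the 8 samples and was not tested.

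Beneath Igfbp2, the shares of the other binding proteins differed between WT and the knockouts. Igfbp2 held 92.1% of the summed FPKM of Igfbp2 to Igfbp7 in WT and 90.9%, 92.0% and 95.8% in E1-KO, E2-KO and E3-KO, while that sum was 270 FPKM in WT and 149, 203 and 173 in the knockouts. Among the others, Igfbp4 held 67.0% in WT and 24.5%, 4.93% and 20.0% in E1-KO, E2-KO and E3-KO. Igfbp7, an atypical member of the family with low affinity for IGFs, held 25.2% in WT and 59.1%, 77.3% and 47.9% in the knockouts. By its own level, Igfbp7 was at 150%, 232% and 63.9% of WT in E1-KO, E2-KO and E3-KO. Igfbp4 is part of the sum behind these shares and was chosen for its fall. Larger shares of the other genes follow in part from that choice. The 2 WT samples were nearly alike in these shares, with Igfbp4 at 66.6% and 67.4%. FPKM is scaled to transcript length, so these shares compare levels between genes, and they were not tested.

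**Figure D2:**
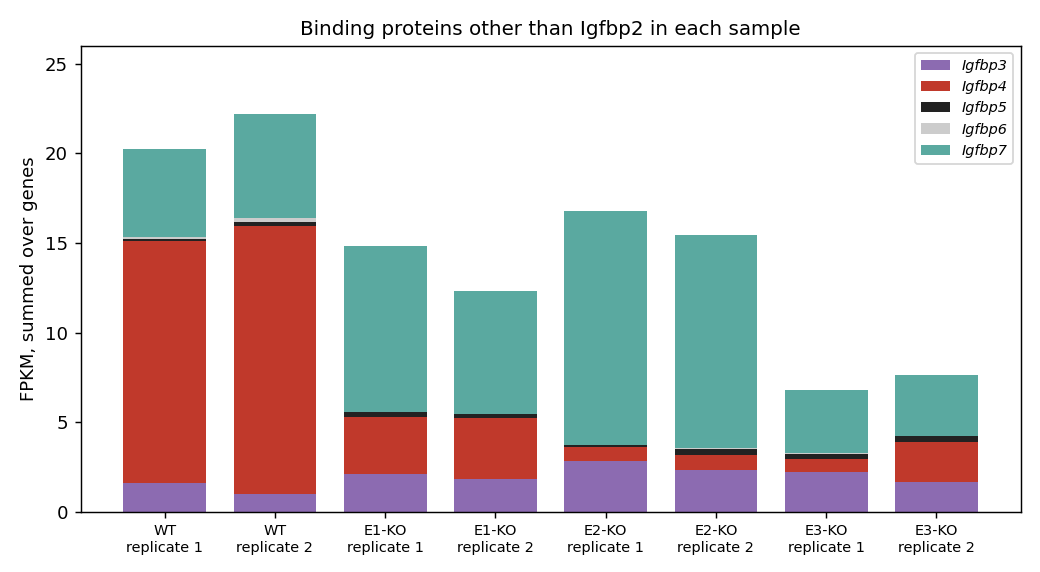
FPKM summed over the binding proteins other than Igfbp2 (y axis, from 0) in each sample (x axis), with a colour for each gene. Igfbp4 (red) makes up most of both WT bars, and Igfbp7 (teal) makes up most of both bars in E1-KO and E2-KO.

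Igfbp7 itself stood at 4.91 and 5.82 FPKM in WT, with E1-KO at 9.27 and 6.88, E2-KO at 13.1 and 11.9 and E3-KO at 3.49 and 3.37. It rose in E2-KO by 1.08 on the log2 scale (adjusted p = 0.00121), a call kept in every alternative tried. It rose in E1-KO by 0.50 (adjusted p = 0.0315) and fell by 0.52 in E3-KO (0.0234). The E1-KO call was lost without the filter on low values (0.0668) and without E1-KO replicate 1 (0.226), WT replicate 1 (0.178) or WT replicate 2 (0.0687). The E3-KO call was lost without the filter (0.0513), with quantile normalization (0.104) or median-ratio scaling (0.0718), and without E3-KO replicate 1 (0.0573), E3-KO replicate 2 (0.0777) or WT replicate 2 (0.154). The difference between E3-KO and the other knockouts was larger than its error, at -1.02 against E1-KO (0.00198) and -1.60 against E2-KO (0.000795).

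Both receptor genes fell. Insr, the insulin receptor, stood at 6.99 and 6.18 FPKM in WT, with E1-KO at 2.23 and 1.54, E2-KO at 3.23 and 2.94 and E3-KO at 3.57 and 2.68 (ENSMUSG00000005534; chr8:3122061-3279617, minus strand). Every knockout sample was below every WT sample, and both E1-KO samples were below all others. The log2 differences (SE 0.17 each) were -1.40, -0.89 and -0.89, with adjusted p of 0.000573, 0.00475 and 0.00348 in E1-KO, E2-KO and E3-KO. These 3 calls held in all 14 alternatives tried, 8 of which left out 1 sample.

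Igf1r, the main receptor for IGF1 and IGF2, kept more of its WT level than Insr, a contrast that was not tested (ENSMUSG00000005533; chr7:67952827-68233668, plus strand). It stood at 4.98 and 4.63 FPKM in WT, with E1-KO at 2.98 and 2.86, E2-KO at 3.40 and 2.80 and E3-KO at 2.99 and 3.33. All 3 knockouts lay below WT, E2-KO spanned the levels of the other knockouts, and both E1-KO samples were just below both E3-KO samples. Their means were 60.7%, 64.4% and 65.7% of WT, against 28.6%, 46.9% and 47.4% for Insr. The log2 differences (SE 0.14 each) were -0.57, -0.51 and -0.48, with adjusted p of 0.0122, 0.0207 and 0.0199. All 3 calls were lost without WT replicate 1 (0.0795, 0.116 and 0.110) and without WT replicate 2 (0.0571, 0.0794 and 0.0709). Quantile normalization ended the E2-KO and E3-KO calls (0.0774 and 0.117), median-ratio scaling the E3-KO call (0.0767), and so did leaving out E1-KO replicate 1 (0.0583) or 2 (0.0647) for E1-KO, E2-KO replicate 2 (0.0911) for E2-KO and E3-KO replicate 1 (0.0733) for E3-KO.

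Of the adaptors, Irs2 was the one expressed at a testable level, and it fell in all 3 knockouts (ENSMUSG00000038894; chr8:10984681-11008458, minus strand). Its values were 6.46 and 7.27 FPKM in WT, with E1-KO at 2.76 and 2.68, E2-KO at 3.60 and 4.54 and E3-KO at 4.85 and 3.95. WT and knockouts did not overlap, and E1-KO was lowest. The log2 differences (SE 0.15 each) were -1.08, -0.64 and -0.55, with adjusted p of 0.00103, 0.0114 and 0.0175. The E2-KO call was lost without E2-KO replicate 1 (0.0689) or WT replicate 2 (0.0895). The E3-KO call was lost with quantile normalization (0.0802) or median-ratio scaling (0.0569), and without E3-KO replicate 2 (0.0896) or WT replicate 2 (0.119). An antisense gene, 9530052E02Rik, overlaps 2.56% of the Irs2 exon bases.

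Irs1, the other widely used adaptor, was listed at 0.278 and 0.182 FPKM in WT, with E1-KO at 0.0575 and 0.0670, E2-KO at 0.0802 and 0.0557 and E3-KO at 0.0184 and 0.129 (ENSMUSG00000055980; chr1:82233101-82291416, minus strand). Each of the 6 knockout values was lower than either WT value, at levels too low to test. Gm9747, an opposite-strand gene that overlaps 30.9% of the Irs1 exon bases, ranged from 0 to 0.191 FPKM. Strand use in the authors' counting is not given in the sources used here, so reads of the pair may be mixed.

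Among the kinases, Sgk3, which is recruited to endosomes by a phosphoinositide, showed the largest tested change of the set (ENSMUSG00000025915; chr1:9798107-9900845, plus strand). It stood at 10.7 and 11.7 FPKM in WT, with E1-KO at 2.06 and 1.99, E2-KO at 2.93 and 3.28 and E3-KO at 3.96 and 3.05. The groups of WT and knockout samples were far apart, and E1-KO lay below the other knockouts. The WT mean was 11.2 ± 0.700, and the knockout means were 2.03 ± 0.0454, 3.10 ± 0.248 and 3.50 ± 0.643, or 18.1%, 27.7% and 31.3% of WT. The log2 differences (SE 0.14 each) were -2.01, -1.57 and -1.44, with adjusted p of 6.65e-05, 0.000212 and 0.000165, and these 3 calls held in all 14 alternatives.

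Akt1, an AKT kinase gene (ENSMUSG00000001729; chr12:112653821-112674884, minus strand), stood at 19.0 and 21.2 FPKM in WT, with E1-KO at 15.2 and 13.8, E2-KO at 14.8 and 15.7 and E3-KO at 10.4 and 9.86. It was lowest in both E3-KO samples, while E1-KO and E2-KO overlapped. The log2 differences (SE 0.11 each) were -0.44, -0.37 and -0.92, with adjusted p of 0.0139, 0.0285 and 0.000365. The E3-KO call held in all 14 alternatives. The E1-KO call was lost without E1-KO replicate 2 (0.101) or WT replicate 2 (0.119). The E2-KO call was lost with quantile normalization (0.0887) or median-ratio scaling (0.0650), and without E2-KO replicate 1 (0.107), WT replicate 1 (0.0648) or WT replicate 2 (0.195).

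**Figure D3:**
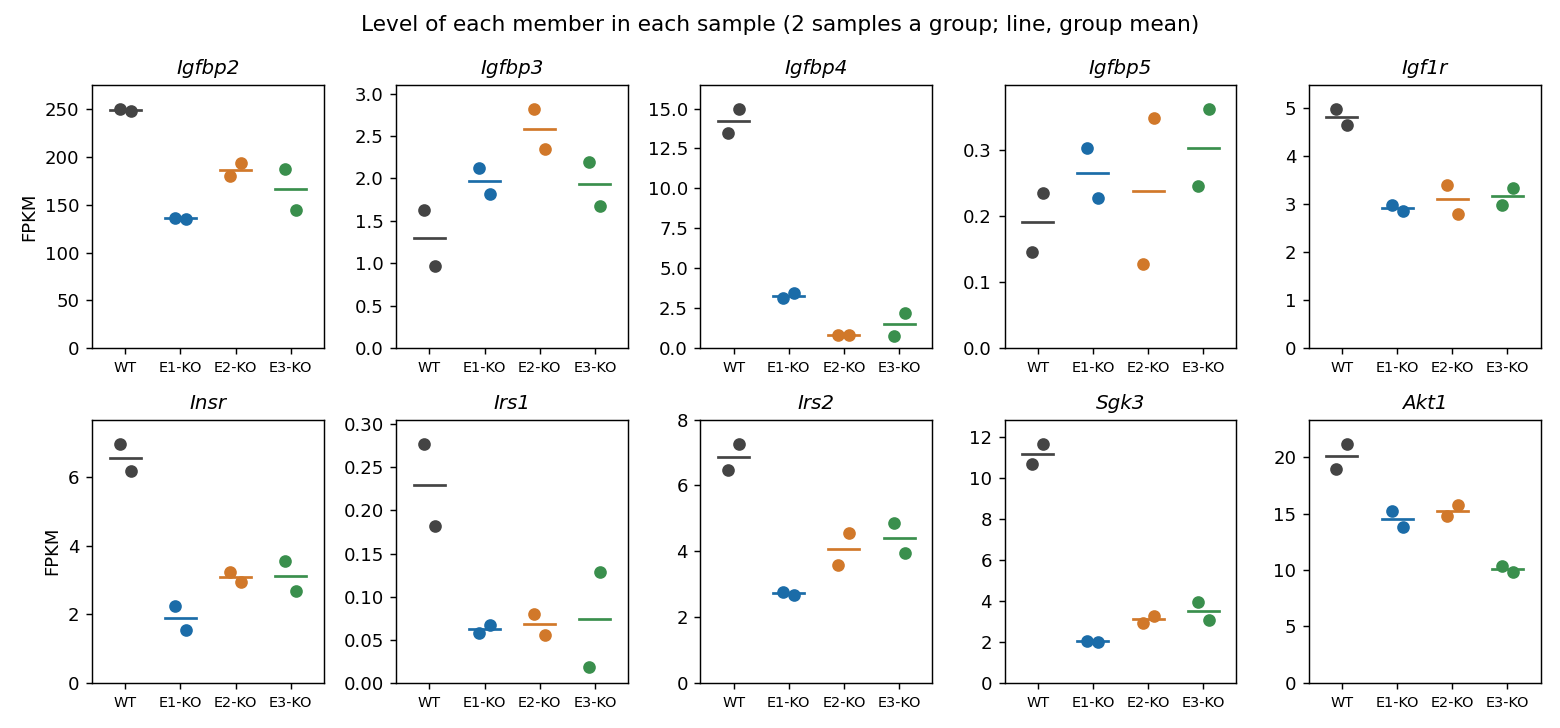
FPKM (y axes, each from 0) of the 10 genes in WT and the 3 knockouts (x axes), with a point for each sample and a line for the group mean. Igfbp4, Insr and Sgk3 show wide gaps between WT and the knockouts, Igfbp3 lies higher in the knockouts, and Igfbp5 overlaps between the groups.

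Of the 7 tested genes other than Igfbp4, 6 fell and 0 rose in E1-KO, where 38.0% of all tested genes were called, 23.0% lower. In E2-KO 6 fell and 1 rose, against 36.1% called and 22.0% lower among all tested genes. In E3-KO 6 fell and 0 rose, against 44.7% called and 30.8% lower. The same 6 genes, Igfbp2, Igf1r, Insr, Irs2, Sgk3 and Akt1, were called lower in all 3 knockouts, as were 13.0% of tested genes; none was called higher in all 3, as were 6.56%. All 6 knockout samples lay below both WT samples for these 6 genes and for 28.5% of tested genes. The 3 comparisons share the same 2 WT samples, and the genes were listed with results known, so these counts are not independent support. The median over all tested genes was -0.06, -0.08 and -0.15 in E1-KO, E2-KO and E3-KO. Median-ratio scaling brought it to 0.00, 0.00 and 0.01 without changing the sign of any member's difference from WT. That scaling lost the calls of Igfbp2 and Akt1 in E2-KO and of Igf1r and Irs2 in E3-KO. Of the 6 genes, only Insr and Sgk3 then stayed called lower in all 3 knockouts.

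**Figure D4:**
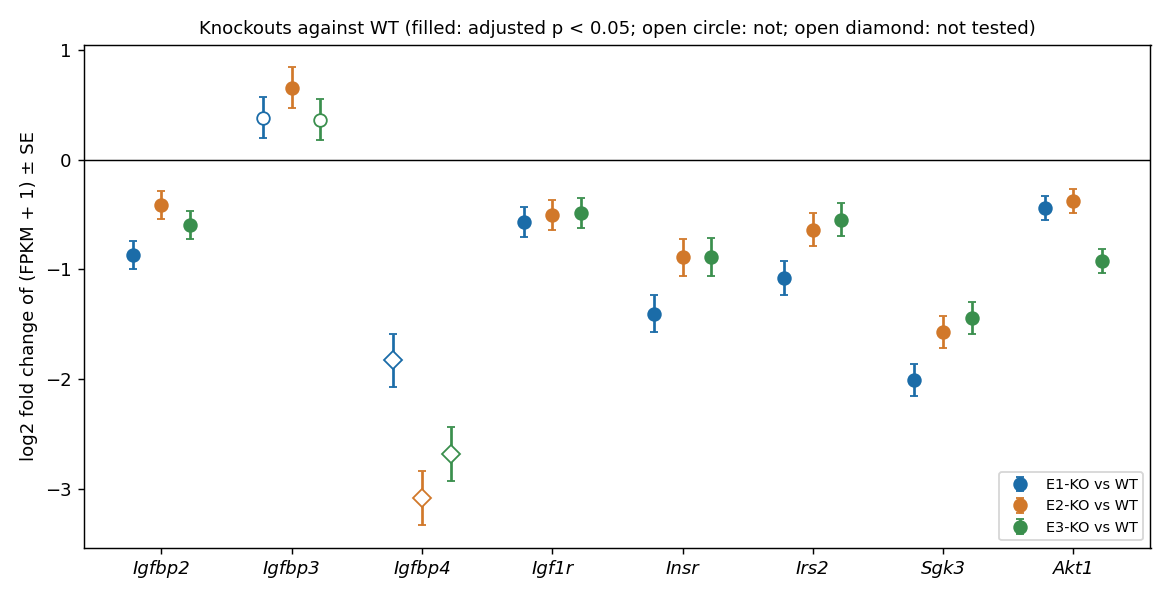
Log2 fold change of (FPKM + 1) against WT with its SE (y axis) for the 8 genes above the filter (x axis) in E1-KO (blue), E2-KO (orange) and E3-KO (green). Filled points passed adjusted p under 0.05, and the open diamonds of Igfbp4 were not tested. Sgk3 lies between -2.01 and -1.44, and Igfbp3 is the only gene above 0.

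The knockouts also differed from one another. Against E1-KO, Irs2 was higher in E3-KO by 0.53 (adjusted p = 0.0314) and Sgk3 by 0.57 (0.0205), and Akt1 was lower (-0.48, 0.0132). These are 3 of 7 tested genes, in a comparison where 25.8% of all tested genes were called, 9.41% higher and 16.4% lower. Insr was 0.52 higher in E3-KO than in E1-KO (0.0549), which did not pass here but passed in 5 of the 14 alternatives. Against E2-KO, Akt1 was lower in E3-KO (-0.55, 0.0131), the only call of the 7 where 15.6% of tested genes were called, 5.48% higher and 10.1% lower. None of the 7 passed between E2-KO and E1-KO by limma-trend, where 0.834% of tested genes were called, 0.488% higher and 0.346% lower. Of the 7, 4 genes, Igfbp2, Insr, Irs2 and Sgk3, had an unadjusted p under 0.05, as did 2091 of the 11270 tested genes. The Irs2 call was lost without the filter on low values (0.0651) and without E1-KO replicate 1 (0.118), E1-KO replicate 2 (0.127), E3-KO replicate 1 (0.136), WT replicate 1 (0.0533) or WT replicate 2 (0.0535). The Sgk3 call was lost without E1-KO replicate 1 (0.0906), E1-KO replicate 2 (0.0964) or E3-KO replicate 1 (0.0960), the Akt1 call against E1-KO without E1-KO replicate 1 (0.110), and that against E2-KO without E3-KO replicate 2 (0.0504).

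The wider pathway was read from a list of 68 other genes grouped by role, of which 65 had a value and 51 were tested. Of these, 5 rose and 12 fell in E1-KO, 6 and 13 did so in E2-KO, and E3-KO had 6 and 15, or 33.3%, 37.3% and 41.2% of the tested list, close to the shares of all tested genes. The list medians were -0.15, -0.20 and -0.22. The split turned with scaling: quantile normalization gave 6 higher and 11 lower for E1-KO, 8 and 8 with E2-KO, and 12 and 7 with E3-KO. Median-ratio scaling gave 7 and 10, 10 and 7, and 12 and 7. Over all tested genes 1694 were higher and 2589 lower for E1-KO, with E2-KO at 1595 and 2474 and E3-KO at 1566 and 3470. Quantile normalization made these 2041 and 2132, 1879 and 2001, and 2274 and 2459, and median-ratio scaling 2088 and 2135, 2063 and 1913, and 2374 and 2351.

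The counts by role stand beside the 38.0%, 36.1% and 44.7% of all tested genes called in E1-KO, E2-KO and E3-KO, with 23.0%, 22.0% and 30.8% called lower. Of 4 receptor adaptors, 2 rose and 2 fell in E1-KO, 1 rose and 1 fell in E2-KO, and E3-KO had 1 rise and 2 falls. Both tested binding proteins, Igfbp7 and Igfals, were called in E1-KO and in E3-KO, and all 3 IGF2 mRNA-binding proteins in E3-KO. Of 7 PI3K subunits, 0 rose and 2 fell in E1-KO, 3 fell in E2-KO, and E3-KO had 1 rise and 2 falls. Of 10 genes of the TSC and mTOR complexes, which couple AKT to growth, none rose and 2, 2 and 3 fell. Among 4 receptor inhibitors, 1 rose in E1-KO, 2 rose in E2-KO, and 1 rose and 1 fell in E3-KO. Of 3 AKT inhibitors, 1 fell in E1-KO and 2 fell in E2-KO, with E3-KO at 0, and of 8 downstream effectors 2 were called in each knockout. Of 4 other AKT family kinases or activators, 0 were called in E1-KO and E2-KO, and 1 fell in E3-KO. Of 3 lipid phosphatases, 1 fell in E1-KO and 1 in E2-KO, with E3-KO at 0.

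The ligands averaged below 1 FPKM. Igf1 ranged from 0 to 0.506, and Igf2, an imprinted fetal growth factor, was at 0.448 and 0.36 in WT, with E1-KO at 0.130 and 0.132, E2-KO at 0.116 and 1.35 and E3-KO at 3.16 and 1.63. Igf2 was highest in both E3-KO samples but was below the filter and was not tested. Igfbp6 ranged from 0 to 0.217, and Ins1, Ins2 and Igfbp1 were not analysed here. Igf2r, the scavenger receptor that takes IGF2 to lysosomes, fell in every knockout: it stood at 35.3 and 39.4 FPKM in WT, with E1-KO at 12.8 and 15.2, E2-KO at 14.9 and 14.9 and E3-KO at 16.3 and 19.0. Its log2 differences were -1.36, -1.27 and -1.05 (adjusted p = 0.000181, 0.000267 and 0.000334). No knockout sample came near the WT levels.

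Ptpn1, a phosphatase that dephosphorylates the insulin receptor, rose in all 3 knockouts. It stood at 20.9 and 21.7 FPKM in WT, with E1-KO at 48.3 and 46.2, E2-KO at 43.4 and 36.0 and E3-KO at 43.9 and 38.8. Its log2 differences were 1.11, 0.86 and 0.92 (adjusted p = 0.000284, 0.000944 and 0.000451). The adaptor Gab1 was the other list gene that rose in all 3, by 0.44 (0.00748), 0.29 (0.0434) and 0.28 (0.0401); its calls were lost without WT replicate 1 (0.0684, 0.231 and 0.217). In E2-KO and E3-KO the Gab1 calls were also lost without WT replicate 2 (0.119 and 0.105), E1-KO replicate 1 (0.072 and 0.066) or E1-KO replicate 2 (0.0717 and 0.0657), and in each knockout without its own replicate 1 (0.079, 0.101 and 0.0509). Without their own replicate 2, E2-KO gave 0.0674 and E3-KO 0.116, and quantile normalization ended the E2-KO call (0.147). Besides Igf2r, the genes that fell in all 3 were Pik3ca, a catalytic PI3K subunit, the adaptor Sh2b1, and Rictor, a subunit of the mTOR complex that phosphorylates AKT. Of the 51 tested list genes, 4 were thus called lower and 2 higher in all 3 knockouts. These are smaller shares than the 13.0% and 6.56% of all tested genes. Sh2b1 and Rictor were named after their values were seen, with differences of -0.44, -0.37 and -0.36 and of -0.36, -0.59 and -0.41. Pik3ca differed from WT by -0.52, -0.67 and -0.70 (adjusted p = 0.0137, 0.00478 and 0.00289), and the E1-KO call was lost without E1-KO replicate 1 (0.0906) or 2 (0.050), WT replicate 1 (0.0620) or WT replicate 2 (0.0881).

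Among the 7 PI3K subunits tested, the leukocyte-enriched Pik3cd fell by 0.80 in E2-KO (adjusted p = 0.0170) and by 1.41 in E3-KO (0.000970), while the regulatory subunit Pik3r3 rose by 1.12 in E3-KO (0.000580). The Pik3cd call in E2-KO was lost without the filter on low values (0.0507), E2-KO replicate 2 (0.0778) or WT replicate 2 (0.134). Pik3r3 stood at 7.45 ± 1.23 FPKM in WT and 17.3 ± 2.81 in E3-KO. Rps6kb1, the S6 kinase that feeds back on IRS proteins, rose in E1-KO by 0.82 (0.0134), a call lost without E1-KO replicate 1 (0.101) or WT replicate 2 (0.0895). Ddit4, an inhibitor of mTOR complex 1, differed from WT by -0.66 in E1-KO (0.0245) and -0.96 in E2-KO (0.00570). The E1-KO call of Ddit4 was lost without the filter (0.0624), E1-KO replicate 2 (0.167), WT replicate 1 (0.0617) or WT replicate 2 (0.144).

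Genes that act on the ligands and binding proteins moved less evenly. Htra1, a secreted protease that cleaves binding proteins, rose in E2-KO by 0.76 (adjusted p = 0.0168) and in E3-KO by 0.60 (0.0346). Both calls were lost without WT replicate 1 (0.0771 and 0.118), WT replicate 2 (0.0800 and 0.121) or the knockout's own replicate 1 (0.104 and 0.184), and the E3-KO call without the filter (0.0801). Igfals, the acid-labile subunit of the circulating complex, fell by 0.65 in E1-KO (0.0201) and by 0.63 in E3-KO (0.0190). Its calls were lost without WT replicate 1 (0.0916 and 0.0852), WT replicate 2 (0.0890 and 0.0807) or the knockout's own replicate 2 (0.131 and 0.0747). Stc2, an inhibitor of pappalysin, fell by 0.86 in E2-KO (0.0369), and that call was lost in 8 of the 14 alternatives, among them every fit without a WT or E2-KO sample (0.0771 to 0.182).

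The 3 IGF2 mRNA-binding protein genes went separate ways in E3-KO. Igf2bp1 rose by 0.60 (adjusted p = 0.00490), as it did in E2-KO (0.60, 0.00655). Igf2bp3 fell by 0.86 in E3-KO (0.000946), from 45.1 ± 1.83 FPKM in WT to 24.6 ± 4.03. Igf2bp3 lies on chromosome 6, where the median of 535 tested genes in E3-KO was -0.62, against -0.13 on the other chromosomes. Its differences from chromosome neighbours were not tested, and none of the 10 genes of the axis lies on that chromosome. Igf2bp2 fell by 0.68 in E1-KO (0.0227) and rose by 0.55 in E3-KO (0.0455). Its E3-KO call was lost in 8 of the 14 alternatives (0.0528 to 0.246), with a difference of 0.20 without E3-KO replicate 2, and its E1-KO call was lost without the filter (0.0602) or any WT or E1-KO sample (0.0695 to 0.118).

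**Figure D5:**
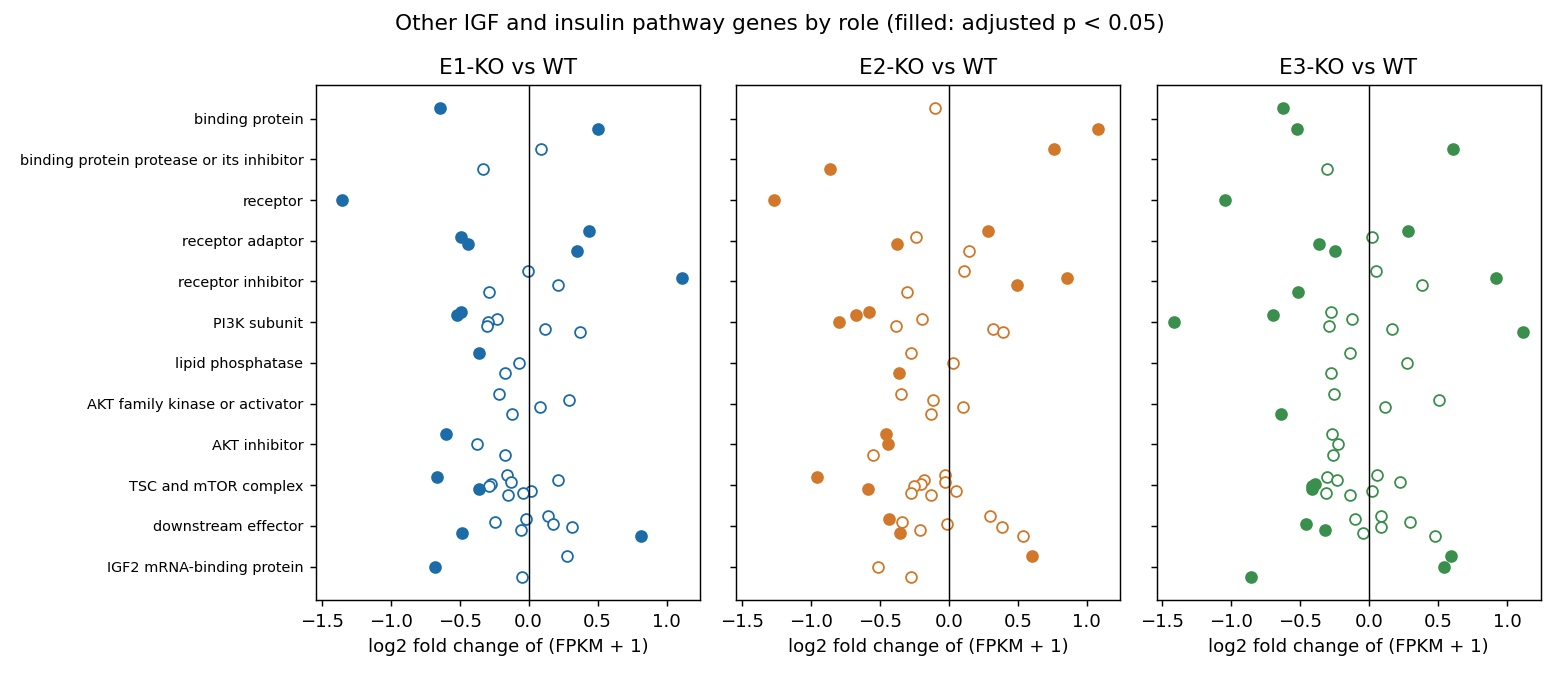
Log2 fold change of (FPKM + 1) against WT (x axes) for the 51 tested list genes by role (y axis), in E1-KO, E2-KO and E3-KO; filled points passed adjusted p under 0.05. The receptor Igf2r lies at -1.36, -1.27 and -1.05, and the rightmost filled point of the receptor inhibitors is Ptpn1.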

How the data were processed

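Total RNA libraries of 8 mouse stem cell samples were sequenced as paired-end reads, per the labels' protocols. For each sample the authors deposited a table of gene identifiers with 1 value each, taken here as FPKM because the values are not whole, differ in total between samples and come with Cufflinks. Per the submitters' processing notes, Trimmomatic 0.36, TopHat2 2.0.12, Cufflinks 2.2.1 and the build mm9 were used, with no role or setting given. Each list held 18774 rows and 17812 identifiers. Of 660 identifiers with several rows, 573 were resolved by their place in the row order and 87 were left out. A total of 17262 identifiers had a symbol. Positions are those of GENCODE M21 on GRCm38 and promoters those of RefSeq on GRCm38.p6, used to describe genes and not to place reads.

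The test was limma-trend on log2(FPKM + 1) for genes averaging 1 FPKM or more (limma 3.58.1, R 4.3.3), all 8 samples in 1 fit with 4 residual degrees of freedom. The call was a two-sided Benjamini-Hochberg adjusted p under 0.05 over the 11270 genes of a comparison. The fit was also run on simulated data with independent values and genes changed in E1-KO only. That setting differs from these data, where all 3 knockouts differed from WT, so it does not bear on the calls here. Fold changes on this scale understate the change of low genes. Tables and figures were made with Python 3.11.15 and matplotlib 3.10.9. Depth is not given in the sources used here, so no counting intervals are given.

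The members and gene lists were chosen with earlier results of these data known. The text names all 10 members, the 4 list genes with the largest called rise and fall in each knockout, the ligands, the other binding proteins, Igf2r and the 5 genes nearest to Igfbp4. Marker lists also covered other lineages. Trophoblast markers summed to 39.4 to 41.7 FPKM in WT and 23.0 to 42.4 in the knockouts. Within them, Gata3 averaged 1.52 FPKM in WT and 1.66, 3.31 and 6.85 in E1-KO, E2-KO and E3-KO. Tfap2c averaged 33.7 in WT and 16.3, 21.4 and 27.8 in the knockouts. Neural markers summed to 5.54 to 6.45 in WT and 8.73 to 12.1 in the knockouts, and mesendoderm markers to 9.24 to 10.3 and 2.22 to 4.50. Within the mesendoderm sum, Gsc and T lay below both WT samples in all 6 knockout samples, and Mixl1 and Kdr above both. Gsc averaged 7.12 in WT and 1.02, 2.29 and 1.92 in the knockouts, and Mixl1 0.126 and 0.621, 0.547 and 0.835. Mesp1 never exceeded 0.134. Alternatives were a pseudocount of 0.1 FPKM, no filter, quantile normalization, median-ratio scaling, repeated identifiers summed, a replicate block and leaving out each sample.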

Additional observations from a re-analysis of the deposited data

Results flagged for a closer look

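Among the members other than Igfbp4 and the list genes named above, 13 differences between knockouts passed limma-trend's test of the difference itself at an adjusted p under 0.05. All of them involved E3-KO. Over all tested genes, 25.8% were called for E3-KO against E1-KO and 15.6% against E2-KO, with 0.834% for E2-KO against E1-KO. Most of these list genes were named for a large called change against WT, so the count is not independent support. Of the 10 genes of the axis, Irs2 (log2 difference 0.53, adjusted p = 0.0314) and Sgk3 (0.57, 0.0205) were higher in E3-KO than in E1-KO, and Akt1 was lower (-0.48, 0.0132). Akt1 was also lower in E3-KO than in E2-KO (-0.55, 0.0131). From the wider list, Igfbp7 was lower in E3-KO than in E1-KO (-1.02, 0.00198) and E2-KO (-1.60, 0.000795). Igf2bp2 was higher in E3-KO than in E1-KO (1.23, 0.00233) and E2-KO (1.06, 0.00828). Igf2bp3 was lower in E3-KO than in E1-KO (-0.81, 0.00215) and E2-KO (-0.58, 0.0161), while the median over the 535 tested genes of its chromosome 6 was -0.59 and -0.58 in the same comparisons. Pik3cd was lower in E3-KO than in E1-KO (-1.12, 0.00507). Pik3r3 was higher in E3-KO than in E1-KO (0.74, 0.00674) and E2-KO (0.72, 0.0135). The Pik3r3 calls were lost without E1-KO replicate 1 (0.0561) against E1-KO, and without E2-KO replicate 1 (0.0569) or E3-KO replicate 1 (0.0534) against E2-KO. The call of Igf2bp3 against E2-KO was lost without E2-KO replicate 2 (0.0560) or E3-KO replicate 1 (0.0540). Groups of 2 samples are too small for a check of single outlying samples.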

How the results depend on the processing

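Leaving out each sample in turn gave 2040 to 4671 calls over all genes in E1-KO against WT, where the full data gave 4283, and 1870 to 4452 in E2-KO (4069) and 2827 to 5338 in E3-KO (5036). Between knockouts the ranges were 2 to 261 for E2-KO against E1-KO (94), 1308 to 3274 for E3-KO against E1-KO (2910) and 973 to 1550 for E3-KO against E2-KO (1753). In the pathway list they were 3 to 19, 8 to 23 and 7 to 22 against WT, and 7 to 14 and 4 to 6 for E3-KO against E1-KO and E2-KO. The lowest counts against WT came without WT replicate 2 in each knockout; in the list, leaving out WT replicate 1 gave the same 8 in E2-KO. Without a filter the list had 12 calls in E2-KO (19) and E2-KO against E1-KO had 1 over all genes. With a pseudocount of 0.1 FPKM the Igfbp4 difference was -4.00 in E2-KO and -3.35 in E3-KO. Leaving out samples moved it from -1.90 to -1.76 in E1-KO, -3.16 to -3.01 in E2-KO and -3.12 to -2.25 in E3-KO, and E3-KO against E2-KO ran from -0.031 without E3-KO replicate 2 to 0.84 without replicate 1, around 0.40 with both. A group left with 1 sample is assumed to vary like the others. The cause of these moves was not tested.

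Gene by gene, samples with the same replicate number did not deviate together (mean correlation 0.0047, from -0.0426 to 0.0892 over 6 pairs of groups). The check is a correlation over genes, so it cannot see a shift in level shared by all genes. It also cannot tell whether samples were grown or sequenced as pairs. With a replicate block, 4056, 3853 and 4807 genes were called against WT and 31 in E2-KO against E1-KO. In the block, Insr passed between E3-KO and E1-KO (adjusted p = 0.0333), and Gab1 in E2-KO (0.0626) and E3-KO (0.0581) and Stc2 in E2-KO (0.0533) did not. With 2 samples a group, unknown depth and FPKM below 1, Igfbp5, Irs1 and the ligands were not tested.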

Other observations

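The balance between the receptors differed in level between WT and the knockouts. The ratio of Igf1r to Insr in FPKM was 0.713 and 0.751 in WT, with E1-KO at 1.33 and 1.86, E2-KO at 1.05 and 0.950 and E3-KO at 0.837 and 1.24, so all 6 knockout samples had a higher ratio than both WT samples. The ratio was not tested.

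Within its kinase family, Sgk3 was not the main transcript. Sgk1, a kinase induced by serum and glucocorticoids, held 96.8% of the summed SGK FPKM in WT, and Sgk3 held 3.15% there and 0.645%, 0.977% and 1.55% in the knockouts. Irs2 held 96.3% of the IRS sum in WT and between 97.1% and 98.0% in the knockouts. These shares are descriptions with no test.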
